A study of Mus musculus with 24 samples.

Results

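The 8 genes described here encode transcription factors of the pancreatic duct and of its endoderm origin. They are *Sox9*, *Onecut2*, *Pdx1*, *Hnf4a*, *Gata6*, *Foxa1*, *Foxa2* and *Foxa3*, and they were found by symbol in the deposited table, which has 19895 entries. All 8 had a count above 0 in each of the 24 libraries and were among the 11438 genes tested. N organoids were grown from normal pancreatic ducts of wild-type C57Bl/6J mice. KP organoids were grown from tumours of mice carrying Pdx1-Cre and Trp53 LSL-R172H among their alleles, in which the Cre recombinase that switches on the mutant *Trp53* is driven by the promoter of *Pdx1*, one of the 8 genes. Both organoid types were kept in medium without EGF and N-acetylcysteine, were given CR-31 at 10 nM or vehicle over 1 h, and were exposed to cycloheximide before lysis. CR-31 is a rocaglate, a compound that blocks eIF4A, the helicase that unwinds the start of mRNAs for the ribosome. Each of the 12 lysates gave 1 library of total mRNA and 1 of polysome-associated mRNA, which is mRNA that carried at least 3 ribosomes, with 3 replicates in each of the 4 groups. The sources do not say whether replicates came from separate mice or separate cultures, so the p-values measure the spread between these samples.

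These factors act in an order in the embryo. FOXA proteins open chromatin in the early gut tube, and GATA6 and PDX1 then set up the pancreatic bud. SOX9 maintains the pool of pancreatic progenitors and stays on in adult duct cells, ONECUT factors are needed for duct formation and endocrine commitment, and HNF4A controls genes of lipid and glucose metabolism in liver, gut and pancreas. PDX1 is high in adult beta cells and low in normal duct cells. In human pancreatic cancer, loss of GATA6, HNF4A and other endoderm factors is known from the basal-like or squamous tumour class.

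The libraries held 47308461 to 267463046 counted reads. The duct gene *Krt19* was abundant, between 586 and 1684 RPKM. The summed level of 9 acinar markers was low at 3.06 to 4.85 CPM, most of it *Cela1*. That of 8 endocrine markers was at most 0.326 CPM. Some libraries stood apart. In N replicate 3, 4 of 4 libraries were nearest to the library of the other fraction and the other treatment, whereas in N replicates 1 and 2 each library was nearest to one of its own fraction. Of the 12 KP libraries, 10 were nearest to one of their own fraction, and the exceptions were vehicle total replicate 1 and CR-31 polysome replicate 2. Within KP replicate 1, CR-31 total lay far from the other libraries, at root-mean-square log2 differences of 0.665, 0.750 and 0.853. Those other libraries lay 0.445 to 0.471 from each other. Whether labels are exchanged within N replicate 3 was not tested, and its values are given as labelled. The library labelled KP vehicle polysome replicate 3 held 39.2 CPM of 7 immune cell markers, against 2.94 to 5.37 CPM in the other 11 KP libraries and 14.8 to 30.6 CPM in the 12 N libraries, with *Ptprc*, the pan-leukocyte marker, at 2.80 CPM against at most 0.0614 in the other KP and 0.0672 in the N libraries. The part of these features in the results below was not tested, and values without N replicate 3 are given beside the results they change. In bulk libraries, fewer cells of a type and less RNA per cell cannot be told apart. No sequencing lane held both N and KP libraries, so organoid type and lane cannot be told apart either. In replicate 2 of each type the vehicle and CR-31 libraries were on different lanes, so that part of the treatment comparison is also a comparison of lanes.

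*Sox9* lies at chr11:112782224-112787760, *Hnf4a* at chr2:163506808-163572910 and *Pdx1* at chr5:147269959-147275848, all on the forward strand of GRCm38 in GENCODE M21. *Foxa1* lies at chr12:57540628-57546916, *Foxa2* at chr2:148042877-148046969 and *Foxa3* at chr7:19013284-19023538, all on the reverse strand. RefSeq promoters on GRCm38.p6, each 250 bases before to 50 after a start, matched 5 of the 8 genes in 8 windows. Both strands were searched for 1 or 2 core words of the FOXA, HNF4, GATA, SOX and ONECUT families, because several of these proteins bind each other's genes. No word for PDX1 was searched. The 3 matches are shown in 30 bases each, read along the strand of the gene, with the word in capitals.
Foxa1: tatactgctttGTAAACAaagtgagggcca
Foxa2: caaggcccattATTGATTttttttctcctg
Hnf4a: gtgattagaagAATCAATaagataaccggg
The window of *Foxa1*, at chr12:57546234-57546263, holds the FOXA word TGTTTAC on the opposite strand, and 6.54% of 32851 promoters hold TGTTTAC or TATTTAC. The window of *Foxa2*, at chr2:148047164-148047193, holds the ONECUT word ATTGATT, and that of *Hnf4a*, at chr2:163506786-163506815, holds it on the opposite strand, which 2.86% of promoters do on either strand. The words CAAAGTC for HNF4 (4.44% of promoters), AGATAAG for GATA (3.04%) and ACAATGG for SOX (3.66%) had no match in the 8 windows. RefSeq and GENCODE starts differ for some of these genes. The *Foxa1* window lies before the RefSeq start used but inside the GENCODE span given above, and the *Hnf4a* window spans the GENCODE start. A match describes the letters and no binding was measured.

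Levels of the 8 mRNAs can be compared per length on the RPKM scale. In vehicle-treated N organoids, *Hnf4a* was the most abundant in total mRNA at 37.1 ± 3.99 RPKM (SD, n = 3), followed by *Foxa2* at 27.9 ± 4.32 and *Sox9* at 18.9 ± 6.15. *Gata6* (12.1 ± 1.83 RPKM), *Onecut2* (10.8 ± 5.98) and *Pdx1* (9.78 ± 1.87) lay close together, and *Foxa1* (2.29 ± 1.31) and *Foxa3* (1.36 ± 0.370) were the lowest. Only *Hnf4a* and *Foxa2*, and *Pdx1* and *Foxa1*, were neighbours in this order whose replicates did not overlap. In vehicle-treated KP organoids *Hnf4a* was again first at 48.9 ± 11.7 RPKM and *Foxa2* second at 23.8 ± 2.67, but *Pdx1* came next at 18.5 ± 3.77, above *Gata6* (12.8 ± 0.508) and *Sox9* (8.17 ± 1.22). *Onecut2* (3.99 ± 1.59 RPKM), *Foxa3* (2.22 ± 1.33) and *Foxa1* (0.386 ± 0.207) closed the order. Only the replicates of *Foxa2* and *Pdx1*, and of *Onecut2* and *Foxa3*, overlapped between neighbours there. *Hnf4a* thus stood at the 83.5th and 86.3rd percentile of tested genes in N and KP, and *Foxa1* at the 28.7th and 12.2nd.

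**Figure D1:**
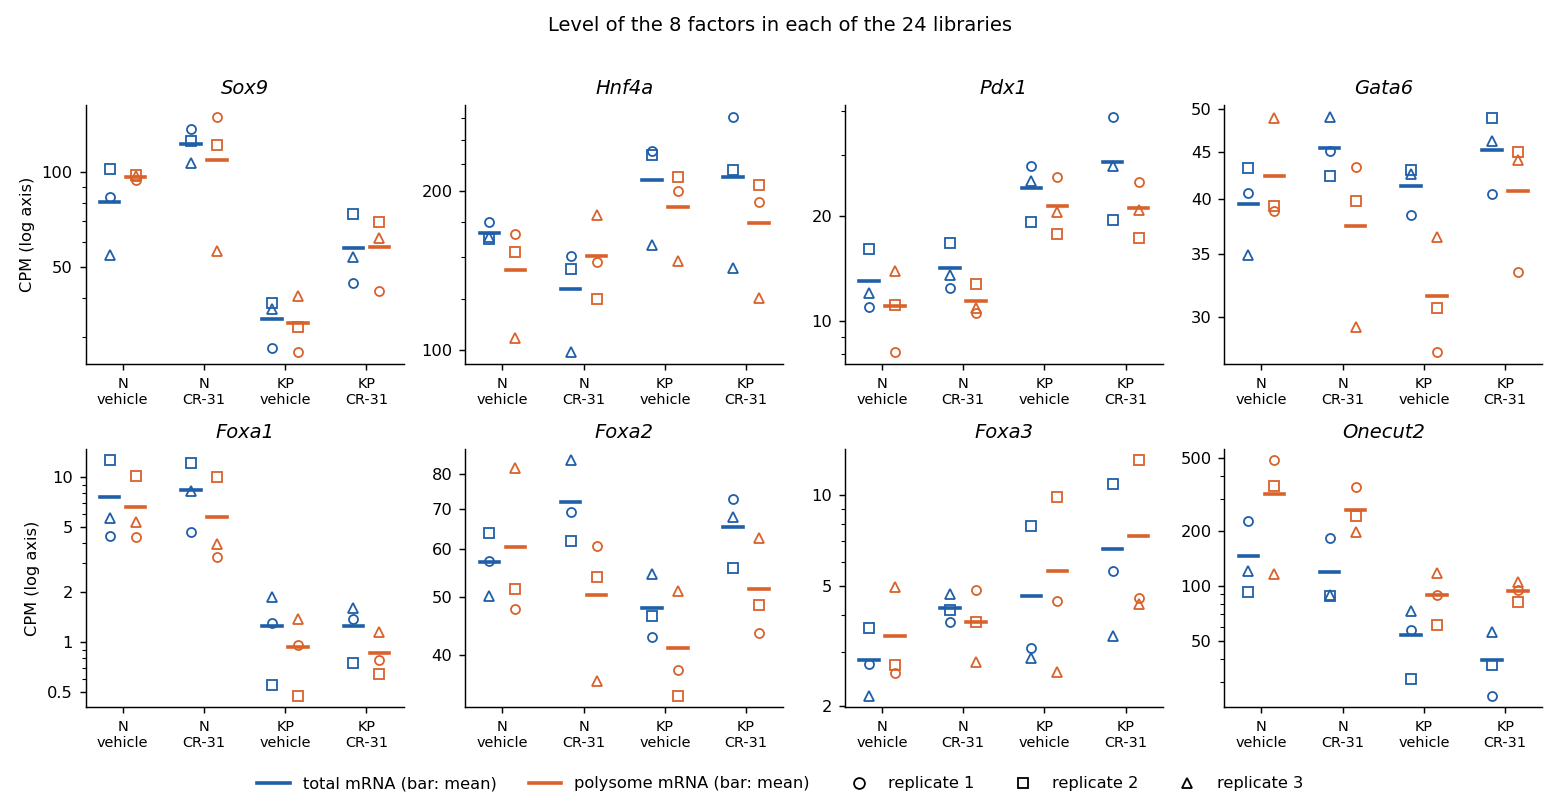
CPM (counts scaled to the TMM library size, log axis) of the 8 factors in each of the 24 libraries, by group, with total mRNA in blue, polysome-associated mRNA in orange, a marker shape for each replicate and a bar at the mean. *Foxa1* was between 0.473 and 1.88 CPM in the 12 KP libraries and between 3.27 and 12.6 CPM in the 12 N libraries.

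Comparing KP with N organoids asks how the tumour-derived cultures differ from normal duct cultures in these factors. In vehicle-treated organoids *Foxa1*, *Onecut2* and *Sox9* were lower and *Pdx1* was higher in KP, in both total and polysome-associated mRNA, by 1.83-fold to 6.85-fold. In total mRNA 4 of the 8 factors passed the adjusted p threshold of 0.25, against 28.5% of all tested genes (13.1% higher and 15.4% lower). The count stayed at 4 without KP vehicle replicate 1 or N vehicle replicate 3, where the share of all tested genes was 14.1% and 16%. In polysome-associated mRNA 7 of 8 passed, against 43.1% of all tested genes (20.9% higher and 22.2% lower). Without KP vehicle replicate 3, whose polysome library held the immune markers, 8 of 8 passed, against 37.9%, with *Foxa3* at 1.11 (edgeR, adjusted p = 0.212). Without KP vehicle replicate 1, 4 of 8 passed, against 28.5%. The median log2 fold change of the 8 was -0.11 in total and -0.45 in polysome-associated mRNA, beside -0.03 over all tested genes in each, and the median size of the change regardless of sign was 0.78 and 0.88, beside 0.37 and 0.49.

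*Foxa1*, which with *Foxa2* opens chromatin at endoderm genes, had the largest difference of the 8. Total mRNA of vehicle-treated organoids held 4.42, 12.6 and 5.67 CPM of *Foxa1* in N replicates 1, 2 and 3, and 1.30, 0.549 and 1.88 CPM in KP. The lowest N library was above the highest KP library, and replicate 2 was the highest in N and the lowest in KP. The log2 fold change of KP over N was -2.62 ± 0.58 (SE), or 6.15-fold lower, with an adjusted p of 0.0188 in edgeR's quasi-likelihood test. Without N vehicle replicate 2 it was -2.03 (adjusted p = 0.0636). Polysome-associated mRNA held 4.34, 10.2 and 5.33 CPM in N and 0.958, 0.473 and 1.38 CPM in KP, again without overlap. The log2 fold change there was -2.78 ± 0.57 (edgeR, adjusted p = 0.0109). These KP values rest on 41 to 226 counts per library, and the N values on 485 to 1592. The size of the difference depends on how low values are treated. On log2 RPKM with a pseudocount of 1, limma gave -1.19 in total and -1.27 in polysome-associated mRNA, both past the threshold.

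*Sox9*, the duct and progenitor factor, was also lower in KP. Total mRNA of vehicle-treated N organoids held 83.6, 103 and 54.6 CPM and that of KP 27.7, 38.5 and 36.8 CPM, so that each N library was above each KP library. The log2 fold change was -1.24 ± 0.26, or 2.36-fold lower (edgeR, adjusted p = 0.0158). Polysome-associated mRNA held 94.6, 98.2 and 97.5 CPM in N and 26.9, 32.4 and 40.6 CPM in KP, with N replicates within 4 CPM of each other. The difference was -1.49 ± 0.33 on the log2 scale, or 2.81-fold lower (edgeR, adjusted p = 0.0137).

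*Onecut2*, whose protein binds the ATTGATT word printed above, was lower in KP as well, with more spread between replicates. Vehicle-treated N organoids held 227, 92.5 and 120.3 CPM in total mRNA and KP organoids 57.2, 31.2 and 73.4 CPM. The groups did not overlap, and N replicate 1 was the highest. The difference was -1.46 ± 0.44 on the log2 scale, or 2.75-fold lower (edgeR, adjusted p = 0.0618). In polysome-associated mRNA the N values were 484, 352 and 117 CPM and the KP values 89.0, 61.7 and 118 CPM, so the groups overlapped through N replicate 3. The log2 fold change there was -1.78 ± 0.43 (edgeR, adjusted p = 0.0208), and without N replicate 3 it was -2.17 (adjusted p = 0.00324).

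*Pdx1* went the other way. Vehicle-treated N organoids held 11, 16 and 12 CPM in total mRNA and KP organoids 27.9, 19.2 and 25.2 CPM. No N library reached the lowest KP library. The log2 fold change was 0.87 ± 0.27, or 1.83-fold higher (edgeR, adjusted p = 0.0698). Polysome-associated mRNA held 8.12, 11.1 and 13.9 CPM in N and 25.8, 17.8 and 20.5 CPM in KP. The groups were again apart, with a log2 fold change of 1.00 ± 0.26 (edgeR, adjusted p = 0.0246).

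**Figure D2:**
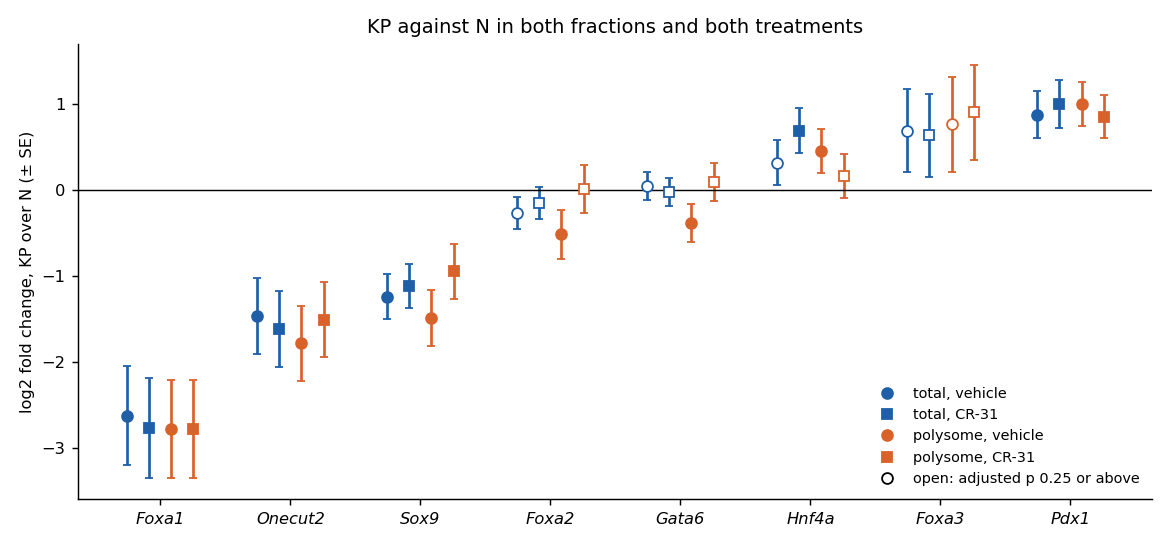
Log2 fold change of KP over N (points, ± SE from edgeR) for the 8 factors in total (blue) and polysome-associated mRNA (orange), with vehicle (circles) and CR-31 (squares), filled where the adjusted p was under 0.25. *Foxa1*, *Onecut2* and *Sox9* are below 0 and *Pdx1* above 0 with filled points in all 4 comparisons, between -2.78 and 1.00.

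*Hnf4a*, *Gata6*, *Foxa2* and *Foxa3* did not pass the threshold in total mRNA of vehicle-treated organoids. *Hnf4a* held 174, 162 and 164 CPM in N and 238, 234 and 158 CPM in KP, where replicate 3 lay below the N libraries, and the log2 fold change was 0.32 ± 0.26 (edgeR, adjusted p = 0.495). *Gata6* was within 34.9 to 43.2 CPM in all 6 of these libraries, with a difference of 0.05 ± 0.16 on the log2 scale and a 95% interval of -0.26 to 0.36. *Foxa2* differed by -0.27 ± 0.19 and *Foxa3* by 0.69 ± 0.48 on the log2 scale. The value of *Foxa3* came from KP vehicle replicate 2, at 7.88 CPM against 3.11 and 2.87 in the other KP replicates, and without it the difference was 0.05 in total and 0.08 in polysome-associated mRNA. In polysome-associated mRNA *Hnf4a* (0.45 ± 0.26), *Gata6* (-0.38 ± 0.22) and *Foxa2* (-0.52 ± 0.28) passed at adjusted p of 0.246, 0.2499 and 0.227 in edgeR, close to the threshold. *Gata6* read 38.9, 39.4 and 48.9 CPM in N and 27.5, 30.7 and 36.5 CPM in KP, without overlap. *Foxa2* read 47.8, 51.6 and 82.0 CPM in N and 37.8, 34.3 and 51.1 CPM in KP, and N replicate 3 was the highest of the 6. Without N replicate 3, these 3 calls were lost (log2 fold changes 0.28, -0.26 and -0.22 for *Hnf4a*, *Gata6* and *Foxa2*; adjusted p 0.414, 0.340 and 0.493), *Foxa3* passed at 1.14 (adjusted p = 0.216), and 5 of 8 factors and 52.6% of all tested genes were called. Without N replicate 3 in total mRNA, the same 4 factors were called as with all libraries, against 19.3% of all tested genes. Over the 19 alternatives for polysome-associated mRNA that changed the method or left out a vehicle library, *Hnf4a* was called in 5, *Gata6* in 8 and *Foxa2* in 11, and leaving out KP vehicle replicate 1 or 2 also ended each of these calls. Groups did not overlap for 4 of the 8 factors in each fraction, against 32.6% of tested genes in total and 33.7% in polysome-associated mRNA.

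The comparison of KP with N under CR-31 uses other libraries of the same replicate numbers, which vary together with those of vehicle, so it is not an independent repeat. The directions of the 4 factors were the same. In total mRNA *Foxa1* was -2.76 ± 0.58, *Onecut2* -1.61 ± 0.45, *Sox9* -1.12 ± 0.26 and *Pdx1* 1.00 ± 0.27 on the log2 scale (edgeR, adjusted p = 0.0155, 0.0402, 0.0230 and 0.0398). *Hnf4a* passed there in addition at 0.69 ± 0.26 (edgeR, adjusted p = 0.105), with N at 151, 142 and 99.0 CPM and KP at 276, 219 and 143 CPM, where KP replicate 3 overlapped N. Without N replicate 3 *Hnf4a* no longer passed (0.54, adjusted p = 0.290). In all, 5 of 8 factors were called, against 39.9% of tested genes (18.9% higher and 21% lower). In polysome-associated mRNA 4 of 8 were called, against 25% of tested genes (11.2% higher and 13.8% lower): *Foxa1* at -2.77 ± 0.57, *Onecut2* at -1.51 ± 0.43, *Pdx1* at 0.85 ± 0.25 and *Sox9* at -0.95 ± 0.32 (edgeR, adjusted p = 0.0190, 0.0601, 0.0677 and 0.101). *Sox9* was the 1 of these 4 whose groups overlapped, since N replicate 3 read 56.4 CPM, below KP replicates 2 and 3. Groups did not overlap for 4 of the 8 factors in total mRNA, against 29.6% of tested genes, and for 3 in polysome-associated mRNA, against 29.4%. Without KP CR-31 replicate 1, 2 of the 8 were called in polysome-associated mRNA, against 9.47% of tested genes, since *Sox9* (-0.74, adjusted p = 0.353) and *Pdx1* (0.73, adjusted p = 0.276) no longer passed in edgeR. The call of *Sox9* was also lost without N replicate 1 or 2 under both treatments (adjusted p 0.260 and 0.253), and that of *Onecut2* without KP replicate 1 under both treatments (adjusted p = 0.255). In total mRNA the call of *Hnf4a* was lost without KP CR-31 replicate 1 (0.45, adjusted p = 0.367), and 4 of 8 factors were called, against 18.6% of tested genes. *Foxa1* in polysome-associated mRNA was -2.11 without N CR-31 replicate 2 (adjusted p = 0.0633).

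*Sox9* and *Pdx1* moved apart within the same libraries, and their ratio needs no scaling between libraries. The pair was formed from genes whose differences are given above, so a separated ratio restates them and is no further test. How often other pairs of genes separate was not compared. Per length, *Sox9* was 1.41 to 4.41 times as abundant as *Pdx1* in the 12 N libraries, with a median of 2.41. In the 12 KP libraries the ratio was 0.309 to 1.25, with a median of 0.583. No N value lay within the KP range. The only KP libraries above 1 were the 2 of CR-31 replicate 2, at 1.17 in total and 1.25 in polysome-associated mRNA.

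**Figure D3:**
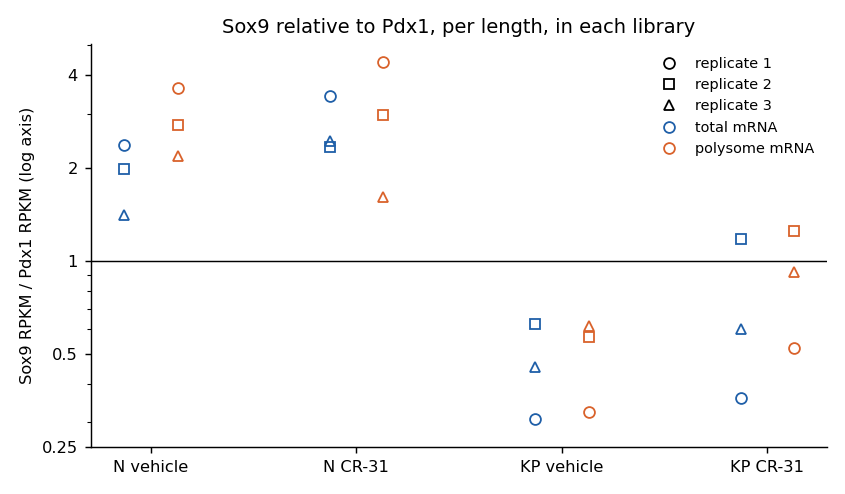
Ratio of *Sox9* to *Pdx1* RPKM in each library (log axis), by group, with total mRNA in blue and polysome-associated mRNA in orange and a marker shape for each replicate. All 12 N libraries lie above 1, from 1.41 upward, and 10 of the 12 KP libraries lie below it.

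Each member can be set beside its closest relatives. Among the FOXA genes, *Foxa2* gave 84.1 to 91.3% of the summed RPKM in N libraries and 77.6 to 94.0% in KP. The share of *Foxa1* was 3.05 to 10.5% in N, with a median of 5.70%, and 0.629 to 2.01% in KP, with a median of 1.08%. *Foxa3* took 3.79 to 7.01% in N and 4.61 to 21.7% in KP. The ranges of *Foxa1* shares thus did not meet between the organoid types, while those of *Foxa2* and *Foxa3* did. *Hnf4a* made up at least 98.1% of the HNF4 sum in every library, and its relative *Hnf4g*, an intestinal factor, was higher in KP at a log2 fold change of 2.34 ± 0.64 in total mRNA of vehicle-treated organoids (edgeR, adjusted p = 0.0417) from 16 to 500 counts. *Gata4*, which shares acinar and early pancreatic roles with *Gata6*, varied widely, at 0.503 to 21.8% of the GATA4 and GATA6 sum in N and 7.15 to 32.1% in KP, and differed by 0.50 ± 1.16 (edgeR, adjusted p = 0.839). *Onecut2* gave 48 to 90.6% of the ONECUT sum in N and 28.1 to 75.6% in KP. *Onecut1* (0.32 ± 0.40, adjusted p = 0.674) and *Onecut3* (0.79 ± 0.79, adjusted p = 0.590) did not pass in edgeR.

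Other regulators give the setting. Of 16 further duct and progenitor factors, 2 were higher and 6 lower in KP in total mRNA with vehicle, where 13.1% of all tested genes were higher and 15.4% lower, and the median of their log2 fold changes was -0.48 beside -0.03 over all tested genes. In polysome-associated mRNA 2 were higher and 9 lower, against 20.9% and 22.2% of all tested genes, with a median of -0.91. Among those with the largest differences in total mRNA were *Prox1*, a regulator of pancreatic progenitors (-2.70 ± 0.68, adjusted p = 0.0316), *Hnf4g* and *Sox4*, a partner of SOX9 in progenitors (-1.68 ± 0.40, adjusted p = 0.0255), all in edgeR. *Prox1* had only 2 to 325 counts. Of 12 duct structural genes, 0 were higher and 4 lower, against 13.1% and 15.4% of all tested genes, with a median of -0.31, led by *Spp1* at -2.16 ± 0.54. *Ptf1a*, the acinar master factor, had 0 to 2 counts per library and *Neurog3*, the endocrine one, 0 to 8. *Trp63*, the squamous factor, had 0 to 10 counts. Of the epithelial-mesenchymal and squamous list 2 of 9 could be tested, and they went opposite ways. *Hmga2* was higher in KP (2.40 ± 0.38, edgeR adjusted p = 0.0048) and *Twist1*, a mesenchymal factor with 4 to 928 counts, was lower (-3.24, adjusted p = 0.208). *Cdx2*, the intestinal factor, was higher as well (1.33 ± 0.33, edgeR adjusted p = 0.0310). Of 9 genes listed as HNF4A and FOXA targets 8 were matched, 3 could be tested and 0 passed in total mRNA in edgeR. *Ttr*, picked after its values were seen, rose in polysome-associated mRNA (2.42 ± 0.83, edgeR adjusted p = 0.0683). There 20.9% of all tested genes were called higher, and the other tested genes of the list are not given here.

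Polysome-associated mRNA was next set against total mRNA of the same lysate, which shows how much of an mRNA is loaded with at least 3 ribosomes relative to the average mRNA. *Onecut2* stood out among the 8. Its ratio of polysome to total CPM was above 1 in 11 of 12 lysates, with a median of 2.06 and a range of 0.971 to 3.81. The lowest value was that of N vehicle replicate 3. Across all tested genes 10.6% were above 1 in at least 11 lysates, and 2.64% had a higher mean log2 ratio than *Onecut2*. In edgeR the log2 ratio of *Onecut2* was 1.00 ± 0.29 in N vehicle (adjusted p = 0.0807), 1.17 ± 0.28 in N CR-31 (0.0606), 0.77 ± 0.28 in KP vehicle (0.134) and 1.32 ± 0.29 in KP CR-31 (0.0142). Without N replicate 3 the value in N vehicle was 1.52 (adjusted p = 0.0112). The value in KP vehicle did not pass without any 1 of its replicates 1, 2 or 3 (0.84, 0.66 and 0.81, adjusted p 0.342, 0.499 and 0.314). The value in N vehicle did not pass without replicate 2 (0.53, adjusted p = 0.541), nor that in N CR-31 (1.03, adjusted p = 0.251), and neither passed without N replicate 1 under both treatments (0.93 and 1.26, adjusted p 0.270 and 0.273). The value in KP CR-31 was lost without KP replicate 1 under both treatments (1.00, adjusted p = 0.349). The direction stayed the same throughout.

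Of the other 7 factors, *Foxa1* was below 1 in 12 of 12 lysates, from 0.478 to 0.984, and passed in N CR-31 (-0.61 ± 0.19, edgeR adjusted p = 0.115) and KP CR-31 (-0.51 ± 0.20, adjusted p = 0.157). *Pdx1* was below 1 in 11 of 12 lysates and passed in KP CR-31 (-0.41 ± 0.16, edgeR adjusted p = 0.160). *Gata6* passed in KP vehicle (-0.40 ± 0.17, edgeR adjusted p = 0.172) and *Foxa2* in N CR-31 (-0.53 ± 0.23, edgeR adjusted p = 0.241). Each of these 5 calls was lost when single lysates were left out. *Foxa1* and *Foxa2* in N CR-31 read -0.39 and -0.20 without replicate 3 (adjusted p 0.486 and 0.880), *Foxa1* and *Pdx1* in KP CR-31 read -0.36 and -0.30 without replicate 1 (adjusted p 0.650 and 0.635), and *Gata6* in KP vehicle did not pass without replicate 1, 2 or 3 (adjusted p 0.469, 0.532 and 0.300). The members called were 1 in N vehicle, 3 in N CR-31, 2 in KP vehicle and 3 in KP CR-31, against 14%, 16.7%, 27.6% and 19.5% of all tested genes. These counts and shares moved widely with single replicates. Without N replicate 3 they were 2, 1, 3 and 6 members, against 33%, 15%, 47.4% and 40.2% of tested genes. The lowest shares with 1 lysate left out were 1.75% in N vehicle without its replicate 2, 4.27% in N CR-31 without its replicate 2, 0.481% in KP vehicle without its replicate 1 and 4.13% in KP CR-31 without its replicate 1, with 0, 1, 0 and 1 members. In KP vehicle the share was 6.08% without replicate 3, whose polysome library held the immune markers. *Foxa3* was above 1 in 6 of 12 lysates, from 0.592 to 2.29 with a median of 1.06, and *Sox9* in 5, from 0.528 to 1.79 with a median of 0.971. *Hnf4a*, *Gata6* and *Foxa2* were each above 1 in 1 of 12. A higher mean log2 ratio was found in 96% of tested genes for *Foxa1*, 89% for *Pdx1*, 87.5% for *Foxa2* and 78.1% for *Gata6*. For *Hnf4a* this share was 67.5%, for *Sox9* 47.6% and for *Foxa3* 33.2%.

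**Figure D4:**
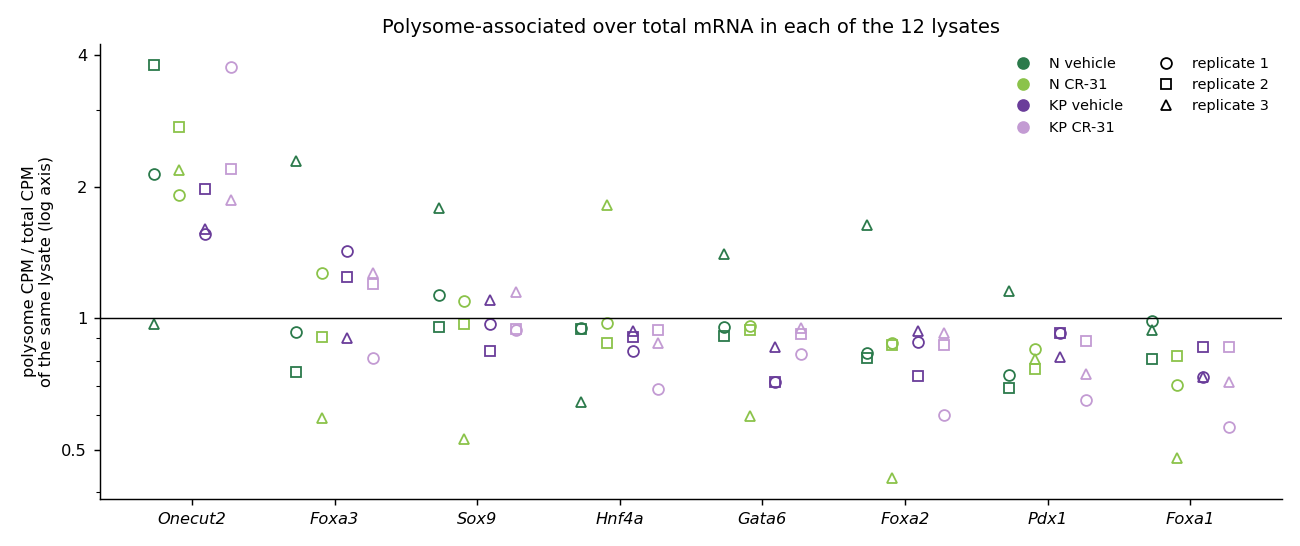
Ratio of polysome-associated to total CPM in each of the 12 lysates (log axis) for the 8 factors, coloured by group, with a marker shape for each replicate. *Onecut2* lies above 1 in 11 of 12 lysates and *Foxa1* below 1 in 12 of 12, and N replicate 3 (triangles) gives many of the extreme values.

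*Onecut2* also has by far the longest transcript of the 8. Its GENCODE M21 mRNA has 16234 nt, of which 14356 nt are 3′-UTR, longer than in 99.96% of 11129 tested genes with a model, where the medians are 3041 and 1066 nt. The other 7 mRNAs have 2037 to 4356 nt. Over all tested genes the 82 with a 3′-UTR of at least 8000 nt had a median polysome to total ratio of 1.11, and 63.4% of them lay above 1. The 5333 with less than 1000 nt had a median of 0.986, with 46.6% above 1. The ratio of *Onecut2* was thus above the median of the genes in its own length class, and the part of length in it was not tested.

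Whether the loading differed between KP and N was tested as the interaction of fraction and organoid type. In edgeR 0 of 11438 genes passed in vehicle-treated organoids, with 1281 (11.2%) at an unadjusted p under 0.05, and *Onecut2* differed by -0.23 ± 0.40 (adjusted p = 0.829). DESeq2 called 374 genes there, none of them among the 8 factors, and limma 0. Without N replicate 3, 3980 genes (34.8%) passed, and 1 of the 8 factors was among them, *Onecut2* at -0.71 (adjusted p = 0.195). *Gata6* was nearest to the threshold with all libraries (-0.49 ± 0.23, unadjusted p = 0.0536 in edgeR). The difference in loading of *Sox9* was -0.37 ± 0.29 and that of *Foxa1* -0.24 ± 0.27, each with a 95% interval that includes 0.

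Comparing CR-31 with vehicle asks what 1 h of eIF4A inhibition does to these mRNAs. With all 12 libraries of a fraction in edgeR and no replicate block, 0 of 11438 genes passed in either organoid type and fraction. An unadjusted p under 0.05 was reached there by 48 genes (0.42%) in N and 406 (3.55%) in KP for polysome-associated mRNA, and by 297 (2.6%) and 109 (0.953%) for total mRNA. Vehicle and CR-31 libraries of the same replicate number vary together, which a replicate block takes into account. With that block 2213 genes (19.3%) passed in KP polysome-associated mRNA, 1 of the 8 factors among them. It gave 7 genes (0.0612%) in N total mRNA, 0 of them among the 8, and 0 genes in KP total and N polysome-associated mRNA. DESeq2 called 13 genes in N and 8 in KP for total mRNA and 0 for polysome-associated mRNA, limma called at most 3, and none of the 8 factors was among them. *Sox9* was the member whose groups were apart in the most comparisons, 3 of 4. Total mRNA of N organoids read 83.6, 103 and 54.6 CPM with vehicle and 137, 126 and 107 CPM with CR-31, so that every treated library was above every vehicle library. In KP the values were 27.7, 38.5 and 36.8 CPM with vehicle and 44.6, 73.8 and 53.9 CPM with CR-31, again without overlap. The log2 differences were 0.63 ± 0.26 in N and 0.75 ± 0.26 in KP (edgeR without the block, unadjusted p = 0.0323 and 0.0136, adjusted p near 1).

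In polysome-associated mRNA of KP organoids *Sox9* read 26.9, 32.4 and 40.6 CPM with vehicle and 42, 69.8 and 61.8 CPM with CR-31. The lowest treated library was above the highest vehicle library. The log2 difference was 0.73 ± 0.32 (edgeR, unadjusted p = 0.0417). With the replicate block, which compares treated and vehicle libraries of the same replicate number, it was 0.72 ± 0.25 and passed (edgeR, adjusted p = 0.196), as did 19.3% of all tested genes. It passed in this 1 of 27 alternatives, and with lane as a covariate it was 0.52 (adjusted p = 0.970). In N the values were 94.6, 98.2 and 97.5 CPM with vehicle and 149.6, 122 and 56.4 CPM with CR-31, and replicate 3 went the opposite way from replicates 1 and 2. Within a lane, the log2 difference of *Sox9* was 0.69 and 0.51 in KP polysome-associated, 0.78 and 0.45 in KP total, 0.56 and 1.09 in N total, and 0.63 and -0.23 in N polysome-associated mRNA. The effect of CR-31 on *Sox9* was not shown to differ between KP and N, at 0.55 ± 0.45 in polysome-associated and 0.12 ± 0.36 in total mRNA (edgeR interaction, unadjusted p = 0.2501 and 0.740).

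Counted over the 12 pairs of libraries that share an organoid type, a fraction and a replicate number, *Sox9* and *Foxa3* were each higher with CR-31 in 11, and in 10 of 10 without N replicate 3. Among all tested genes 603 (5.27%) were higher in at least 11 of 12 pairs and 588 (5.14%) in 10 of 10. *Gata6* and *Foxa2* were higher in 10 of 12, as 14.9% of all tested genes were in at least 10, while *Hnf4a* was higher in 2 and *Onecut2* in 4. The pairs of total and polysome-associated mRNA share a lysate, so they are not 12 independent observations. The share of tested genes with a mean difference above that of *Sox9* was 2.19% in N total, 1.23% in KP total, 2.47% in KP polysome-associated and 38.4% in N polysome-associated mRNA.

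Among the other 7 factors the groups seldom separated. *Foxa2* in KP total mRNA read 42.9, 46.5 and 54.6 CPM with vehicle and 72.7, 55.8 and 67.8 CPM with CR-31, without overlap (0.46 ± 0.19, edgeR unadjusted p = 0.0307). In N total mRNA *Foxa3* read 2.75, 3.61 and 2.16 CPM with vehicle and 3.79, 4.16 and 4.70 CPM with CR-31, and *Hnf4a* was lower in each treated library. The members without overlap were 3 of 8 in N total mRNA, against 6.85% of all tested genes, 2 in KP total (5.9%), 1 in KP polysome-associated (19.6%) and 0 in N polysome-associated mRNA (2.1%). The KP and N comparisons share no libraries here. *Pdx1* in polysome-associated mRNA of KP organoids differed by only -0.09 ± 0.25 on the log2 scale, with a 95% interval of -0.58 to 0.41.

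**Figure D5:**
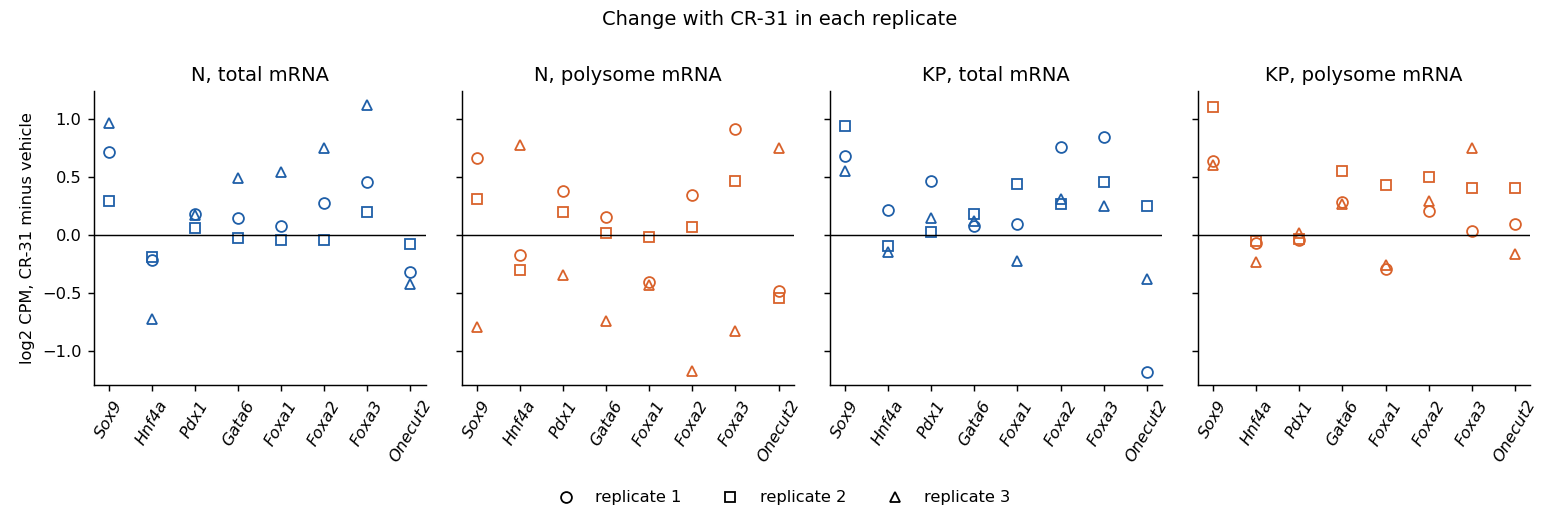
Log2 CPM difference between CR-31 and vehicle for each replicate number (marker shape) and factor, in 4 panels for organoid type and fraction, with total mRNA in blue and polysome-associated mRNA in orange. *Sox9* is above 0 in 11 of 12 pairs, and the exception is N replicate 3 in polysome-associated mRNA.

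Across the 12 libraries of total mRNA, which share the 2 organoid types and their lanes, the genes whose log2 CPM followed each factor most closely are given as a description. For *Pdx1* these were *Troap*, *Kif22* and *Atp5g3* (Pearson's r = 0.984, 0.983 and 0.982), the first 2 of which are mitotic genes, and 249 genes were above an r of 0.9. For *Foxa1* they were *Foxn1*, *Cnn1* and *Crp* (0.974, 0.967 and 0.966), with 162 genes above 0.9. *Hnf4a* was followed by *Mink1*, *Cables2* and *Sik3* (0.965, 0.963 and 0.959) and *Onecut2* by *Lhfp* and *Bnip2* (0.981 and 0.972), each with 51 genes above 0.9. *Sox9* was followed by *Trib1*, *Gadd45g* and *Lamb3* (0.967, 0.951 and 0.950), with 16 genes above 0.9. *Foxa2* (*Fam110a*, r = 0.947), *Foxa3* (*Ift172*, r = 0.910) and *Gata6* (*Paf1*, r = 0.899) had 1, 2 and 0 such genes.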

How the data were processed

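Counts per gene and library were deposited by the authors without normalization, beside RPKM values that the authors computed from them. According to the methods and the submitters' processing notes, reads were aligned with HISAT2 and handled with SAMtools (versions not given in the sources used here), reads mapping to several places were discarded, and reads were counted on coding transcripts of RefSeq genes. The build named is human (hg38, GRCh38) while the genes are mouse, so no coordinate comes from these files. Discarding reads with several matches can undercount genes with near-identical copies.

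Tests covered the 11438 genes whose counts exceeded 0 in all 24 libraries, and 1042 entries that list several symbols and 136 symbols found in more than 1 entry were not used as members. Depth was 47308461 to 267463046 counts per library, so counting error matters mainly for *Foxa1* in KP. CPM are relative to TMM-scaled library sizes. Tests were edgeR 4.0.16 quasi-likelihood fits in R 4.3.3 of the 4 groups per fraction, and of all 24 libraries with the lysate as block for polysome against total mRNA, with Benjamini-Hochberg adjustment over all tested genes and the study's threshold of 0.25. RPKM served for levels between genes and, with limma 3.58.1 and pseudocounts of 0.1 and 1, as alternatives. DESeq2 1.42.0 was another. Levels, ratios and figures used Python 3.11.15 with pandas 2.3.3, numpy 2.4.6 and matplotlib 3.10.9. The fits were tested on simulated data.

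Replicate numbers come from the labels. Deviations of same-numbered libraries from their group means correlated between vehicle and CR-31 at an r of 0.55 to 0.89 in N and 0.45 to 0.80 in KP, so numbers pair treatments, but at -0.17 to 0.28 between N and KP, so they do not pair organoid types. The members and gene lists were chosen with earlier results of these data known. Named genes are the members, their family relatives, up to 4 called genes of each list with the largest change, and the closest genes by Pearson's r; *Ptf1a*, *Neurog3*, *Trp63*, *Ttr*, *Krt19* and *Ptprc* were named after their values were seen. A few items that this rule names are not reported here.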

Additional observations from a re-analysis of the deposited data

How the results depend on the processing

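The lower levels of *Foxa1*, *Sox9* and *Onecut2* and the higher level of *Pdx1* in KP with vehicle passed in each fraction in 19 of 19 alternatives that changed the method or left out a vehicle library, the replicate block not counted, and the weakest adjusted p was 0.240, for *Pdx1* in total mRNA. In KP against N with vehicle, polysome-associated mRNA, *Hnf4a*, *Gata6* and *Foxa2* were not called without a filter. With replicates left out, 4 to 8 members were called there, beside 24.6 to 52.6% of all tested genes. With CR-31 the members were 1 to 4, beside 8.03 to 34.7%. For the difference in loading the count was 0 to 1, and 34.8% of genes passed where it was 1. For polysome against total mRNA it was 0 to 6 in KP CR-31 (2.38 to 40.2% of genes) and 0 to 3 in KP vehicle (0 to 47.4%). In N it was 0 to 5 with CR-31 (0.0437 to 30.2%) and 0 to 2 with vehicle (1.75 to 33%). For CR-31 against vehicle in polysome-associated mRNA of KP, the replicate block gave 1 called member, *Sox9*, against 19.3% of all tested genes. For KP against N with vehicle in total mRNA, the block gave 6 members (*Hnf4a* and *Foxa3* at adjusted p 0.194 and 0.0968) and 56.4% of genes. There it lies within organoid type and leaves only the spread within replicates as error, so these calls say nothing about KP against N. Differences near 0 changed sign: *Foxa2* in KP against N with CR-31, polysome-associated mRNA, was -0.0315 with upper-quartile scaling, -0.0238 with the block and -0.19 to 0.17 with a replicate left out, and *Gata6* there was -0.0593 to 0.23. *Gata6* in total mRNA with CR-31 was 0.0014 without a filter and -0.0768 to 0.0492 with a replicate left out, and with vehicle -0.0365 to 0.115. *Sox9* with CR-31 in polysome-associated mRNA of N was -0.15 without N replicate 1 and 0.51 without N replicate 3. The causes were not tested. Depth limits *Foxa1* in KP, at 41 to 226 counts.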
